A study of Mus musculus with 6 samples.

Results

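The 9 genes described here encode the enzymes that break down aromatic amino acids in the liver. Of these, 5 belong to the tryptophan (kynurenine) route (Tdo2, Afmid, Kmo, Kynu and Haao) and 4 to the tyrosine route (Tat, Hpd, Hgd and Fah). They were picked by name and function from the 55487 genes in the count table, by a rule that uses no measured value but was written with earlier results of these data known. All 9 were among the 14046 genes that passed the filter on low counts and were tested.

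Bulk liver RNA was sequenced from 6 male wild-type mice that ate a normal chow diet, with 1 library per mouse and livers taken at 17 weeks of age. The 3 control mice received GalNAc-siNC, a control siRNA, and the other 3 received GalNAc-siRnf10, an siRNA against Rnf10, which encodes a RING-type ubiquitin ligase. Both siRNAs carry N-acetylgalactosamine (GalNAc), a sugar bound by the asialoglycoprotein receptor of hepatocytes, and were given under the skin. No mice without a conjugate were sequenced in the libraries used here, so both groups share the ligand. The comparison asks how hepatic transcripts differ when the siRNA targets Rnf10. Each group received 1 siRNA sequence. Effects of that sequence other than on Rnf10 therefore cannot be told apart from those of lower Rnf10.

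Tryptophan, tyrosine and phenylalanine that are not used for protein synthesis are degraded mainly in hepatocytes. Tryptophan is opened by tryptophan 2,3-dioxygenase to N-formylkynurenine and passes through kynurenine to intermediates that are either oxidised fully or used to make NAD. Phenylalanine joins the tyrosine route, in which tyrosine is transaminated and then opened to fumarate and acetoacetate. Tat and Tdo2 are textbook targets of glucocorticoids, with Tat peaking daily around feeding. The hour at which livers were taken, the feeding state then and glucocorticoid levels are not given in the sources used here. The part of these in the values below was not tested.

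Total counts per library were between 26854377 and 33058645. Levels are given as CPM, counts scaled to a common library size by edgeR's TMM normalization, unless stated otherwise. Rnf10, the target of the siRNA, was at 130, 153 and 136 CPM in the GalNAc-siNC mice and at 58.6, 61.4 and 60.5 CPM in the GalNAc-siRnf10 mice, a log2 fold change of -1.22 (standard error, SE, 0.0715, edgeR quasi-likelihood F-test, Benjamini-Hochberg adjusted p = 3.29e-09). GalNAc-siNC mouse 1 stood apart from its group. The chi-square per gene was 30.6 and 29.8 in its pairs with the other GalNAc-siNC mice, 10.4 between those mice, and 4.71 to 5.40 within the GalNAc-siRnf10 group. Deviations from the mean of the other mice of the group had a Spearman rho with GC content of -0.406, 0.485 and -0.0206 and with gene length of 0.33, -0.162 and -0.265 in GalNAc-siNC mice 1, 2 and 3, across 14046 genes that are not independent replicates. Since each mouse is set against the others, a trend in 1 mouse also produces opposite trends in them. These values therefore cannot tell whether such trends were particular to mouse 1. Results below were also computed without mouse 1. The hepatocyte markers Alb, Apoa1, Ttr and Cps1 were present at a summed 49970 to 53450 CPM with GalNAc-siNC and 75930 to 78580 CPM with GalNAc-siRnf10, whereas markers of kidney tubule, another site of several of these enzymes, had at most 2 counts in any library and 3 of 5 (Kap, Slc12a1 and Aqp2) were at 0 in all 6.

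Of the 9 genes, 6 rose in GalNAc-siRnf10 livers (Tdo2, Afmid and Kynu of the tryptophan route, and Tat, Hpd and Hgd of the tyrosine route), none fell, and Kmo, Haao and Fah were not called (edgeR quasi-likelihood F-test, with calls at a Benjamini-Hochberg adjusted p below 0.05). Over all tested genes, 14.0% were called in either direction, 6.71% as higher and 7.28% as lower. Of the 9, 6 had an unadjusted p under 0.05, compared with 26.7% of all tested genes, and 0 of these were lower. The median log2 fold change of the 9 was 0.38, against 0.0022 over all tested genes. In 8 of the 9 the values of the groups did not overlap, compared with 32.8% of all tested genes, and in 7 each GalNAc-siRnf10 mouse was above each GalNAc-siNC mouse, compared with 16.5%. The 6 rises were the same genes when GalNAc-siNC mouse 1 was left out, a fit in which 9.73% of all tested genes were called higher and 10.2% lower, and the median of the 9 was then 0.35. For a single gene, 3 mice against 3 cannot give an exact two-sided permutation p under 0.1, so the p-values come from the fit over all genes.

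**Figure D1:**
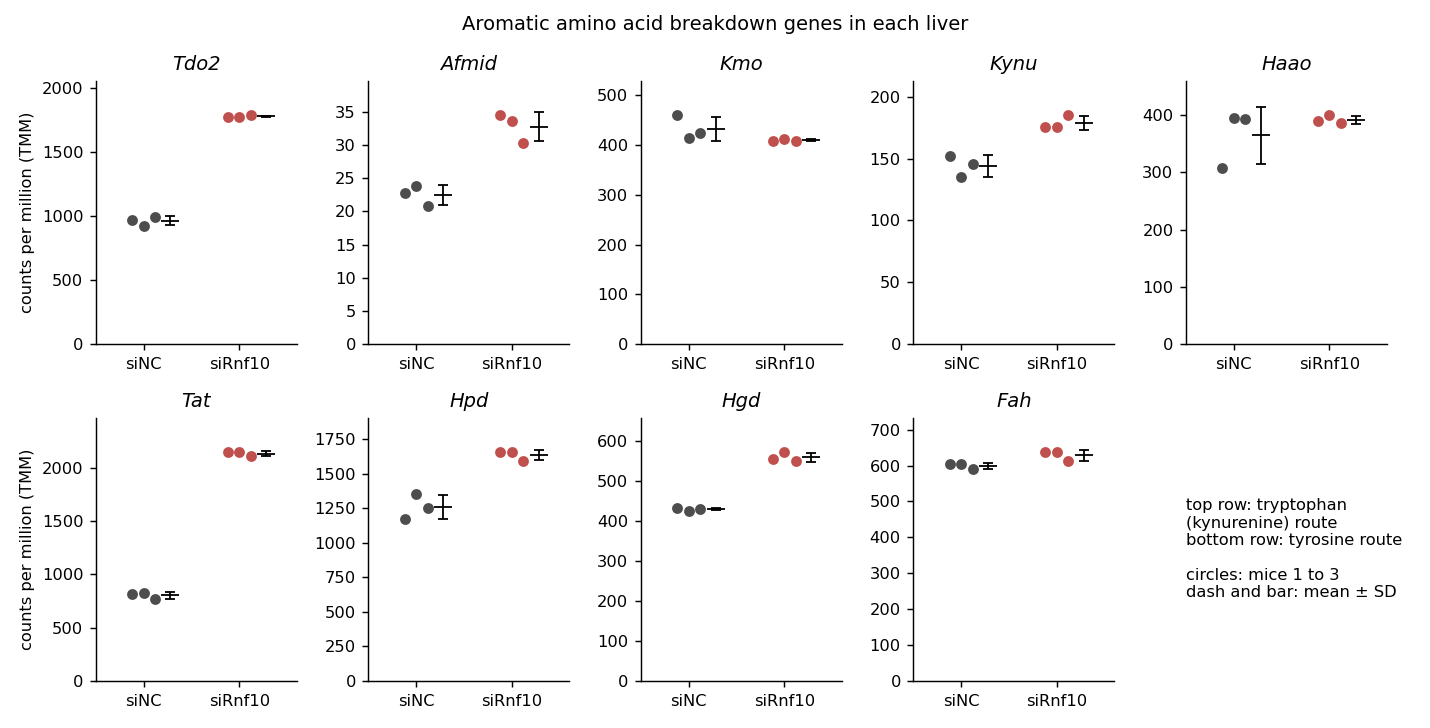
Level of each of the 9 genes in every mouse, in TMM-normalized CPM on axes that start at 0; circles are the 3 mice of each group and dashes with bars are the mean ± SD. Tat moved from between 769 and 824 CPM to between 2110 and 2150 CPM and Tdo2 from between 925 and 996 CPM to between 1773 and 1784 CPM, whereas the groups of Haao overlapped.

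Tyrosine breakdown starts with Tat, the tyrosine aminotransferase that makes 4-hydroxyphenylpyruvate and sets the pace of the route. Tat (ENSMUSG00000001670) is on chromosome 8 (GRCm38, as for all coordinates here), bases 109990437 to 109999803, plus strand. Its level was 820, 824 and 769 CPM in the GalNAc-siNC mice and 2149, 2150 and 2110 CPM in the GalNAc-siRnf10 mice. The lowest treated liver therefore held more than 2 times the Tat of the highest control, and within each group the mice were close together. The means were 804 ± 31 CPM (SD, n = 3) and 2136 ± 22.7 CPM (SD, n = 3), a ratio of 2.66. The log2 fold change was 1.41 (SE 0.0511, 95% interval 1.30 to 1.52, edgeR quasi-likelihood F-test, Benjamini-Hochberg adjusted p = 6.13e-12). Of the 14046 tested genes, 81 had a larger log2 fold change than Tat.

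Hpd encodes 4-hydroxyphenylpyruvate dioxygenase, which turns the product of Tat into homogentisate. Hpd (ENSMUSG00000029445; chromosome 5, 123171807 to 123182727, minus strand) was at 1172, 1350 and 1252 CPM with GalNAc-siNC and at 1654, 1656 and 1592 CPM with GalNAc-siRnf10. The groups did not overlap, and the controls were spread more widely than the treated mice, with means of 1258 ± 89.3 and 1634 ± 36.3 CPM (SD, n = 3 each). Its log2 fold change was 0.38 (SE 0.0564, 95% interval 0.26 to 0.50, edgeR adjusted p = 0.000178).

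Hgd encodes homogentisate 1,2-dioxygenase, the enzyme that opens the aromatic ring and whose loss causes alkaptonuria. Hgd (ENSMUSG00000022821; chromosome 16, 37580153 to 37632020, plus strand) was at 432, 426 and 430 CPM in controls and at 554, 572 and 551 CPM in treated mice. It had the tightest controls of the 9 genes, with a coefficient of variation of 0.668%, and every treated mouse was above them. That spread was no larger than counting error alone would give. The log2 fold change of 0.38 (SE 0.0513, 95% interval 0.27 to 0.49, edgeR adjusted p = 5.99e-05) was close in size to that of Hpd.

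Fah, fumarylacetoacetase, performs the last step and releases fumarate and acetoacetate. Fah (ENSMUSG00000030630; chromosome 7, 84585159 to 84606722, minus strand) was at 604, 604 and 590 CPM with GalNAc-siNC and at 638, 637 and 612 CPM with GalNAc-siRnf10. All 3 treated mice were above all 3 controls, but the gap was small beside the error that edgeR assigned, and the gene was not called (log2 fold change 0.07, 95% interval -0.04 to 0.18, edgeR adjusted p = 0.417). On the scale of TPM, the share of transcripts after division by gene length, the Fah means stood in the other order, at 673 ± 35.7 TPM in controls and 656 ± 7.41 TPM in treated mice (SD, n = 3 each), so the direction of the Fah difference depended on the scale.

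The sequences just upstream of Tat, Hpd and Hgd are shown because these 3 genes of the route rose together and their RefSeq start lies within 4 bases of the start of the counted gene model. Each is the run of 250 bases before the RefSeq start, 5′ to 3′ on the strand of the gene in GRCm38.p6, and capitals mark matches to the motifs named after the sequences.
Tat, chr8:109990186-109990435, plus strand: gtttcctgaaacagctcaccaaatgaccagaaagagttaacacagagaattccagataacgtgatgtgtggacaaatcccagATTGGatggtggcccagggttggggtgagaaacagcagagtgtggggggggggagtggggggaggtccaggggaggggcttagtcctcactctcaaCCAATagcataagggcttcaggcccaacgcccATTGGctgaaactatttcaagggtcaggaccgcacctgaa
Hpd, chr5:123182724-123182973, minus strand: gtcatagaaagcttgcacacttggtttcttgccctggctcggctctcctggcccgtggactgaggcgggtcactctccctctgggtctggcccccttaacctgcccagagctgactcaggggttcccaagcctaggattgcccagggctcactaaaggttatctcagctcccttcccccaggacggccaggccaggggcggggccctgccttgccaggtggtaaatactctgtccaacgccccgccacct
Hgd, chr16:37579903-37580152, plus strand: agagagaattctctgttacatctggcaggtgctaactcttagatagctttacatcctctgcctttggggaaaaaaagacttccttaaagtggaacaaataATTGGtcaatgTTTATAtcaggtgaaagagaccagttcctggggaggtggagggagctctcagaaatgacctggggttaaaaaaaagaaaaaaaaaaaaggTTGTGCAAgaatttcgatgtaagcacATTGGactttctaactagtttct
The share of G and C was 53.6% upstream of Tat, 62.8% upstream of Hpd and 38.8% upstream of Hgd.

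Both strands of these windows were searched for 5 motifs: TATAAA (the TATA box), CCAAT (bound by NF-Y), TGTTCT (a half-site of the glucocorticoid receptor), TTGCNNAA (a C/EBP site) and TTANGTAA (the D-box of clock output factors). RefSeq held a window for 8 of the 9 genes, and none was given for Kynu. CCAAT was found 3 times upstream of Tat, with its first letter 40, 72 and 168 bases before the start, and 2 times upstream of Hgd, at 23 and 150 bases. The Hgd window also held TATAAA at 139 bases and TTGCNNAA at 49 bases, and no motif matches overlapped in the printed windows. The Hpd window held none of the 5. Among the other genes, Tdo2 held CCAAT and TATAAA, and Haao held TGTTCT. The RefSeq starts of Tdo2 and Haao lie 474 and 1173 bases from the start of the counted gene model. Those of Fah and Kmo lie 780 and 11812 bases from it, so these windows are not just upstream of the counted model. Of all 32851 windows of this length, 33.8% held CCAAT, 16.1% TGTTCT, 12.4% TATAAA, 9.56% TTGCNNAA and 2.06% TTANGTAA. These matches describe letters in a window and not occupied sites.

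The tryptophan route begins with Tdo2, tryptophan 2,3-dioxygenase, the rate-limiting enzyme of hepatic tryptophan oxidation. Tdo2 (ENSMUSG00000028011; chromosome 3, 81957090 to 81976202, minus strand) was at 969, 925 and 996 CPM in the GalNAc-siNC mice and at 1775, 1773 and 1784 CPM in the GalNAc-siRnf10 mice. Tdo2 levels of the treated livers were nearly alike, with a coefficient of variation of 0.321%, and far above all controls. With at most 55011 Tdo2 counts in a library, this spread is no larger than counting error alone would give. It therefore says little of how alike the livers were. The means were 963 ± 35.9 and 1777 ± 5.71 CPM (SD, n = 3 each), a ratio of 1.85. The log2 fold change was 0.88 (SE 0.0503, 95% interval 0.78 to 0.99, edgeR quasi-likelihood F-test, Benjamini-Hochberg adjusted p = 2.26e-09), and 286 tested genes had a larger one.

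Afmid, kynurenine formamidase, converts N-formylkynurenine into kynurenine and had the lowest level per gene length of the 9 genes. Afmid (ENSMUSG00000017718; chromosome 11, 117825924 to 117839908, plus strand) was at 22.7, 23.7 and 20.8 CPM in controls and at 34.4, 33.6 and 30.3 CPM in treated mice. The groups did not overlap, and its log2 fold change was 0.55 (SE 0.0873, 95% interval 0.36 to 0.73, edgeR adjusted p = 0.00034). Afmid shares 83 exon bases with Tk1, thymidine kinase 1, on the opposite strand. Tk1 had 519 to 801 counts per library against 625 to 1042 for Afmid, and rose by a log2 fold change of 0.59 (edgeR adjusted p = 0.000575). Since the sources used here do not say whether counting used the strand, the Afmid value is uncertain, and no other of the 9 genes shared exon bases with another gene. The predicted gene Gm20708 shares 1566 exon bases with Afmid on the same strand and had 0 counts in every library. How reads in shared bases were counted is not given, so the Afmid level may be too low if such reads were dropped.

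Kmo, kynurenine 3-monooxygenase, hydroxylates kynurenine on the outer mitochondrial membrane. Kmo (ENSMUSG00000039783; chromosome 1, 175620381 to 175662116, plus strand) was at 460, 414 and 424 CPM with GalNAc-siNC and at 408, 412 and 408 CPM with GalNAc-siRnf10. It was the single gene of the 9 in which every treated mouse lay below every control, although the lowest control and the highest treated mouse nearly met. It was not called (log2 fold change -0.08, SE 0.056, 95% interval -0.20 to 0.04, edgeR adjusted p = 0.406).

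Kynu, kynureninase, cleaves 3-hydroxykynurenine to 3-hydroxyanthranilate. Kynu (ENSMUSG00000026866; chromosome 2, 43555329 to 43682715, plus strand) was at 152, 135 and 146 CPM in controls and at 176, 175 and 185 CPM in treated mice. All treated mice were above all controls, and the log2 fold change of 0.31 (SE 0.0633, 95% interval 0.17 to 0.44, edgeR adjusted p = 0.00294) was the smallest of the 6 rises.

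Haao, 3-hydroxyanthranilate 3,4-dioxygenase, makes the unstable intermediate from which quinolinate and then NAD are formed. Haao (ENSMUSG00000000673; chromosome 17, 83831156 to 83847963, minus strand) was at 307, 394 and 392 CPM with GalNAc-siNC and at 389, 399 and 385 CPM with GalNAc-siRnf10. GalNAc-siNC mouse 1, the library that stood apart, was the only low value, and the other 5 mice overlapped. The log2 fold change was 0.10 (95% interval -0.08 to 0.28, edgeR adjusted p = 0.489), and without that mouse it turned to -0.0096 (edgeR adjusted p = 0.915).

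**Figure D2:**
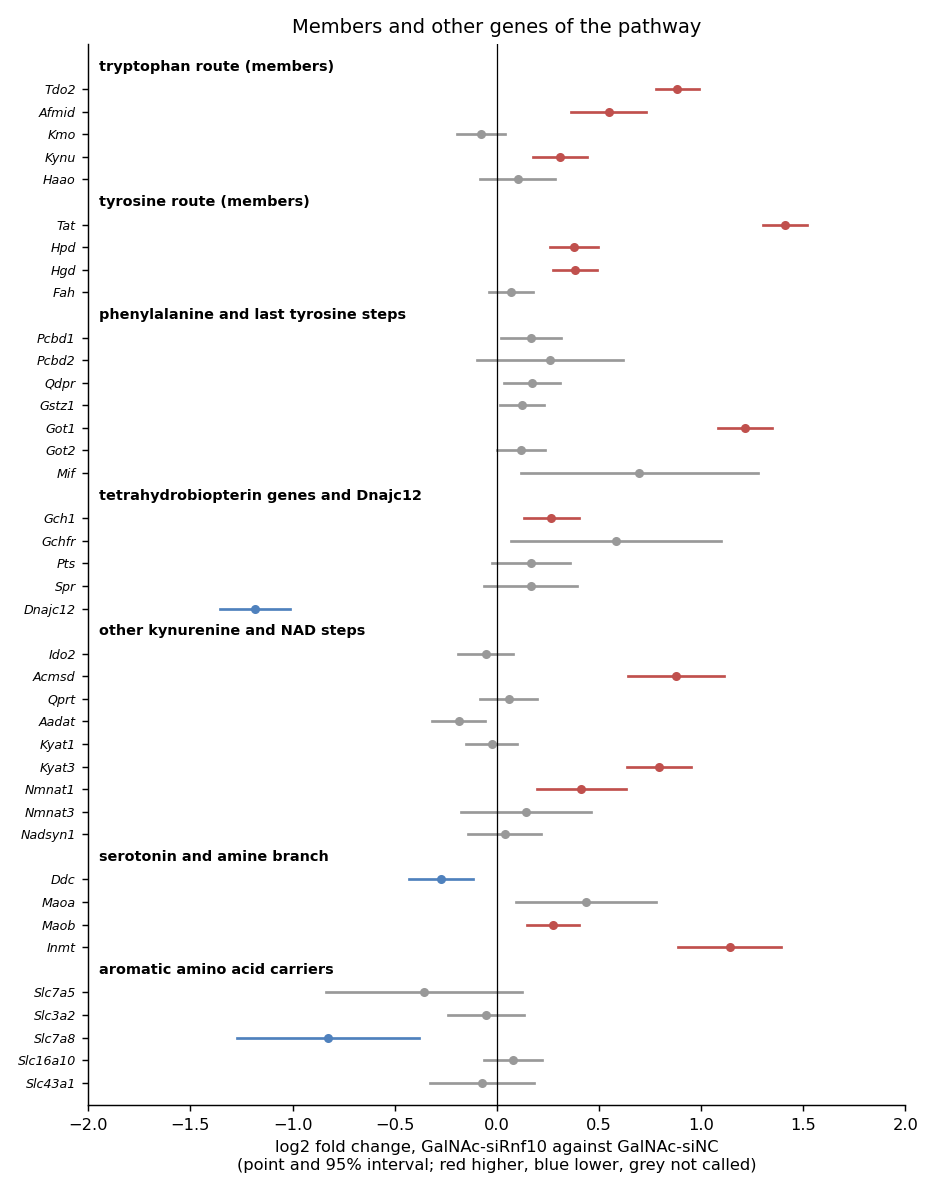
Log2 fold change, GalNAc-siRnf10 against GalNAc-siNC, of the 9 genes and the 30 other tested genes of the pathway. Bars are 95% intervals derived from the edgeR fit. Red is higher and blue lower at an adjusted p under 0.05, and grey was not called. Tat, at 1.41, and Got1, at 1.22, lie farthest to the right, and Dnajc12, at -1.18, farthest to the left.

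The enzymes of one route thus moved by unequal amounts, and ratios of levels per gene length within a mouse show this without reference to the library size. Tat stood at 0.619, 0.54 and 0.544 times the TPM of Hpd in the controls and at 1.15, 1.15 and 1.17 times in the treated mice. The ratio of Tat to Fah, the first and last enzymes of the 4, was 1.25, 1.26 and 1.20 in controls and 3.11, 3.11 and 3.18 in treated mice. In the tryptophan route the ratio of Tdo2 to Kmo was 2.57, 2.72 and 2.86 in controls and 5.29, 5.24 and 5.32 in treated mice. None of these ratios overlapped between the groups.

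In order of the control TPM, the levels were 1471 ± 85.9 for Hpd, 834 ± 61.8 for Tat, 673 ± 35.7 for Fah, 618 ± 30.5 for Tdo2, 409 ± 18.6 for Hgd, 228 ± 21.7 for Kmo, 193 ± 19.9 for Haao, 58.5 ± 5.25 for Kynu and 15.8 ± 1.47 for Afmid (SD, n = 3 each). Of the neighbours in this order, only Fah and Tdo2 had overlapping ranges among the mice. With GalNAc-siRnf10 the order changed at 2 places. Tat, at 2054 ± 5.23 TPM, stood above Hpd, at 1775 ± 17.7 TPM, and Tdo2, at 1059 ± 16.8 TPM, stood above Fah. No neighbours overlapped in the treated group. Among all genes Tat moved from rank 141 to rank 61 and Tdo2 from rank 189 to rank 114, whereas Fah held rank 177 in both groups and Kmo went from rank 435 to rank 512.

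**Figure D3:**
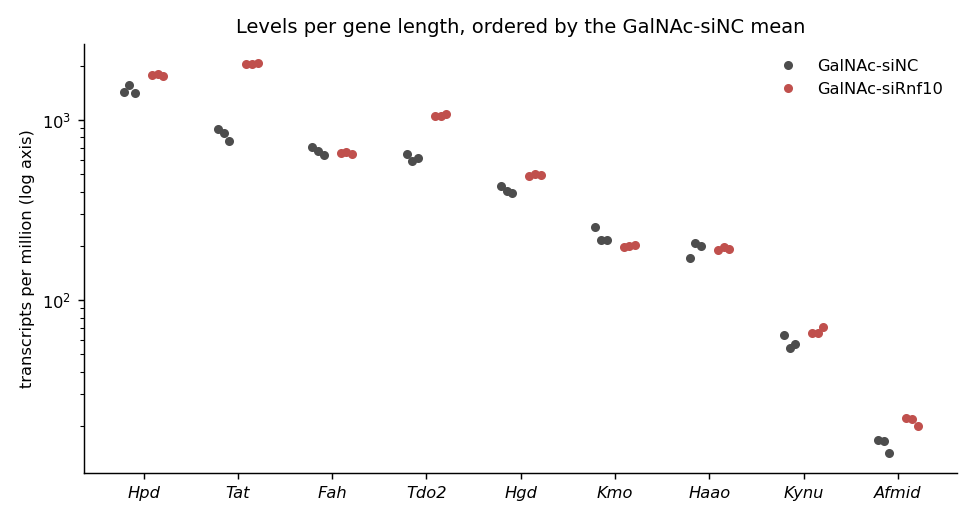
Level per gene length of each of the 9 genes in every mouse, in TPM on a log axis, with the genes in the order of their GalNAc-siNC mean. Tat is second in the control order at a mean of 834 TPM and reaches 2054 TPM with GalNAc-siRnf10, whereas Fah, Kmo and Haao stay near their control levels.

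Summed over the 9 genes, the level was 4615, 4578 and 4310 TPM in the GalNAc-siNC mice and 6500, 6543 and 6521 TPM in the GalNAc-siRnf10 mice. The 4 tyrosine genes contributed 3460, 3493 and 3208 TPM in controls and 4975, 5008 and 4956 TPM in treated mice, and the 5 tryptophan genes 1155, 1085 and 1102 TPM in controls and 1525, 1534 and 1565 TPM in treated mice. The 9 genes took 0.504% to 0.516% of all counts in controls and 0.759% to 0.766% in treated mice. Of the 4 hepatocyte markers, 3 also rose, with log2 fold changes of 0.64 for Alb, 0.66 for Ttr and 0.58 for Cps1. Apoa1, at 0.08, was not called, and its groups overlapped. Most of the summed hepatocyte level was Alb, at means of 39070 CPM in controls and 60860 CPM in treated mice. Tf, also on the marker list, matched no gene symbol. The summed cholangiocyte markers Krt19, Krt7, Epcam, Spp1 and Sox9 stood at 68.5 to 69.9 CPM in controls and at 37.8 to 38.9 CPM in treated mice, with 1 of 5, Spp1, called lower. Most of this sum was Spp1, at a mean of 61.9 CPM in controls and 33.1 CPM in treated mice. Sox9 was at means of 4.43 and 3.02 CPM. Krt19, Krt7 and Epcam had means below 1 CPM in both groups, and their groups overlapped. The 5 Kupffer cell markers, at a summed 139 to 161 CPM and 150 to 156 CPM, had none called. The 5 sinusoidal endothelial markers went from a summed 57.8 to 58.5 CPM to 64.3 to 66.1 CPM, with Clec4g and Lyve1 called higher. The other endothelial markers, Stab2, Fcgr2b and Oit3, had log2 fold changes of -0.26, 0.29 and 0.32 and were not called. The 5 stellate cell markers went from 81.6 to 88.8 CPM to 101 to 104 CPM, with Reln and Dcn called higher. The other stellate markers, Lrat, Des and Rgs5, had log2 fold changes of -0.27, -0.20 and 0.03 and were not called. Pancreas acinar markers summed to 15.1 to 22.4 CPM and 28.2 to 30.8 CPM, with Cela1 called higher. Nearly all of this sum was Cela1, at means of 19.8 and 29.5 CPM. Cpa1 was at 0 in all libraries, and Prss2, Ctrb1 and Pnlip had at most 2 counts in any library and were not tested. T and B cell markers summed to at most 1.64 CPM, with none called. Without GalNAc-siNC mouse 1, Sox9, the Kupffer cell marker Cd5l and the endothelial marker Stab2 were also called lower, the endothelial marker Fcgr2b was called higher and Lyve1 was no longer called. The part of these shifts in the values of the 9 genes was not tested, and in bulk tissue fewer cells of a type and less RNA per cell cannot be told apart.

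The other genes of the pathway described here were 35 enzymes, cofactor genes and carriers, of which 30 were tested. Of these, 7 rose (Got1, Gch1, Acmsd, Kyat3, Nmnat1, Maob and Inmt), 3 fell (Dnajc12, Ddc and Slc7a8) and 20 were not called, beside shares of 6.71% higher and 7.28% lower over all tested genes, and the median log2 fold change was 0.15. Without GalNAc-siNC mouse 1, 11 rose and 4 fell, beside shares of 9.73% and 10.2% over all genes tested in that fit, and the median was 0.085. The same shares are the background for the counts of each smaller list below. Il4i1, Ido1, Tph1, Aanat and Slc6a19 were not tested, and each had at most 4 counts in any library.

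Of the 7 tested genes that help to feed phenylalanine into tyrosine or to complete its breakdown, 1 rose and none fell, and without GalNAc-siNC mouse 1 the count was 3, with Gstz1 and Mif added. Got1, the cytosolic aspartate aminotransferase, was at 140, 162 and 148 CPM in controls and at 348, 348 and 348 CPM in treated mice (log2 fold change 1.22, SE 0.0629, edgeR adjusted p = 7.62e-10). Got1 levels of the treated mice were nearly alike and lay far above all controls. Their spread was smaller than counting error alone would give. The mitochondrial aminotransferase Got2 had a log2 fold change of 0.12 and Gstz1, which isomerises maleylacetoacetate ahead of Fah, also 0.12, and neither was called (edgeR adjusted p = 0.179 and 0.126).

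Tetrahydrobiopterin is a cofactor of aromatic amino acid metabolism, and of 5 genes listed with it 1 rose, and 1 fell that is no enzyme of its synthesis (Dnajc12). Without GalNAc-siNC mouse 1, Gchfr also rose. Gch1, GTP cyclohydrolase, was at 167, 186 and 185 CPM in controls and at 225, 206 and 216 CPM in treated mice (log2 fold change 0.27, edgeR adjusted p = 0.00848). This call was lost without GalNAc-siRnf10 mouse 1 (edgeR adjusted p = 0.0904) or mouse 3 (0.0611). Dnajc12, a co-chaperone of the DnaJ family, was at 45.6, 50 and 52.5 CPM in controls and at 22.2, 22.1 and 20.8 CPM in treated mice (log2 fold change -1.18, SE 0.0816, edgeR adjusted p = 2.2e-08). Every treated mouse was far below every control in Dnajc12.

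Beyond the 5 enzymes above, 9 kynurenine and NAD genes were tested, of which 3 rose and none fell, with Aadat called lower once GalNAc-siNC mouse 1 was left out. Acmsd, which diverts the product of Haao away from NAD, was at 17.3, 13.3 and 14 CPM in controls and at 30.1, 25.1 and 26.9 CPM in treated mice (log2 fold change 0.88, SE 0.111, edgeR adjusted p = 3.11e-05). Kyat3, a kynurenine aminotransferase that makes kynurenate, was at 72.9, 59.6 and 67.4 CPM in controls and at 114, 117 and 115 CPM in treated mice (log2 fold change 0.79, edgeR adjusted p = 9.56e-07). Both genes were above all controls in every treated mouse, and both overlap antisense genes of low count, at most 14 counts for the partner of Acmsd and 51 for that of Kyat3. Nmnat1, which makes NAD in the nucleus, had a log2 fold change of 0.41 (edgeR adjusted p = 0.0125), a call lost without GalNAc-siRnf10 mouse 1 (0.108). The other kynurenine aminotransferases Aadat (log2 fold change -0.19, edgeR adjusted p = 0.0523) and Kyat1 (-0.03, 0.829) and the NAD branch gene Qprt (0.06, 0.624) were not called.

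In the serotonin and amine branch, 2 of the 4 tested genes rose and 1 fell, with Maoa also called higher once GalNAc-siNC mouse 1 was left out. Inmt, an N-methyltransferase of indole amines, was at 193, 249 and 266 CPM in controls and at 521, 538 and 502 CPM in treated mice (log2 fold change 1.14, SE 0.109, edgeR adjusted p = 0.000241). Maob, monoamine oxidase B, had a log2 fold change of 0.28 (edgeR adjusted p = 0.00446). Ddc, the aromatic amino acid decarboxylase, was at 54.8, 54.4 and 61.4 CPM in controls and at 47.4, 48.1 and 45.6 CPM in treated mice (log2 fold change -0.27, edgeR adjusted p = 0.0187). The call on Ddc was lost without GalNAc-siNC mouse 3 (edgeR adjusted p = 0.076) and without any 1 of the GalNAc-siRnf10 mice (0.0891, 0.0712 and 0.119 without mice 1, 2 and 3).

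Of the 5 tested carriers of aromatic amino acids, none rose and 1 fell. Slc7a8, the light chain LAT2, was low throughout, at 3.81, 3.37 and 2.73 CPM in controls and 2.13, 1.61 and 1.87 CPM in treated mice (log2 fold change -0.83, SE 0.211, edgeR adjusted p = 0.0137). Its call was lost without GalNAc-siRnf10 mouse 2 (edgeR adjusted p = 0.0769) or mouse 3 (0.0542). Slc16a10, the aromatic amino acid carrier TAT1, had a log2 fold change of 0.08 (edgeR adjusted p = 0.502).

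NAD can also be made from nicotinamide and its riboside, and 2 of the 4 tested genes of these routes rose and none fell, with Naprt called lower once GalNAc-siNC mouse 1 was left out. The shares over all tested genes were 6.71% higher and 7.28% lower. Nampt, the first enzyme of nicotinamide salvage, was at 67.7, 58.4 and 64.1 CPM in controls and at 85.4, 87.1 and 85.8 CPM in treated mice (log2 fold change 0.44, edgeR adjusted p = 0.00034). Nmrk1, which phosphorylates nicotinamide riboside, had a log2 fold change of 0.23 (edgeR adjusted p = 0.0393) a call that 8 of 18 alternatives lost. Among these were the fits without GalNAc-siNC mouse 2 (edgeR adjusted p = 0.0709) and without GalNAc-siRnf10 mouse 1, 2 or 3 (0.119, 0.155 and 0.157).

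Of 10 known regulators of Tat and Tdo2, 1 rose, 2 fell and 7 were not called, beside shares of 6.71% higher and 7.28% lower over all tested genes. The glucocorticoid receptor gene Nr3c1 was at 91.5, 78.3 and 80.6 CPM in controls and at 76.2, 77 and 77.6 CPM in treated mice, and was not called (log2 fold change -0.12, 95% interval -0.27 to 0.03, edgeR adjusted p = 0.313). Ahr, the receptor for which kynurenine is one ligand, was at 40.1, 34.1 and 39.1 CPM in controls and at 51.9, 52.5 and 54.1 CPM in treated mice (log2 fold change 0.48, edgeR adjusted p = 0.000385). The pioneer factors Foxa1 and Foxa2 fell, with log2 fold changes of -0.81 (edgeR adjusted p = 1.16e-05) and -0.53 (0.00135), whereas Foxa3 was at 0.03 and was not called. Hnf4a and the clock output factor Dbp, with log2 fold changes of 0.08 and 0.25, were not called. Without GalNAc-siNC mouse 1, 2 of the 10 rose (Cebpb and Ahr) and 3 fell (Cebpa, Foxa1 and Foxa2), beside shares of 9.73% and 10.2% over all genes tested in that fit. Messenger levels of these factors say nothing of their activity.

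Across the 6 libraries the genes whose log levels tracked Tdo2 most closely, of 10936 compared, were Ugt2b5 (Pearson r = 0.99983), Hamp2 (0.99963) and Gm42047 (0.99954). The genes compared had a mean normalized count of at least 50 over both groups. Hamp2 was at a mean of 0.686 CPM in controls, near the pseudocount of 0.5 CPM, and at 5.29 CPM in treated mice. Its place in the comparison therefore rests on the treated group. For Tat they were Tsc22d3 (Pearson r = 0.99918), Noct (0.99902) and St3gal5 (0.99883). Ugt2b5 encodes a glucuronosyltransferase, Tsc22d3 the leucine zipper protein GILZ, a textbook glucocorticoid-induced gene, and Noct the deadenylase-related protein nocturnin. Their log2 fold changes were 0.67 for Ugt2b5, 2.93 for Hamp2, 3.69 for Gm42047, 1.89 for Tsc22d3, 1.88 for Noct and 0.84 for St3gal5. All 6 points share the split into 2 groups, and 89 genes for Tdo2 and 81 for Tat had an r of at least 0.99.

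**Figure D4:**
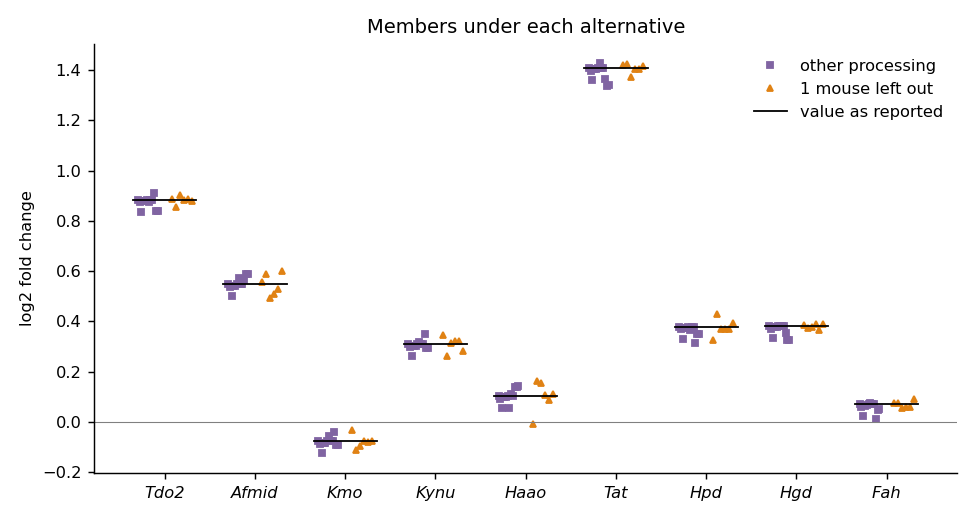
Log2 fold change of each of the 9 genes as reported (line), under other processing (squares) and with 1 mouse left out (triangles). The values for Tat stay between 1.34 and 1.43 and those for Tdo2 between 0.84 and 0.91, whereas Haao crosses 0 when GalNAc-siNC mouse 1 is left out.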

How the data were processed

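Liver RNA of 6 mice, 3 per group, was measured by RNA-seq with 1 library per mouse, and each group was taken from its label. The authors prepared stranded mRNA libraries, sequenced both ends, and used HISAT2 for mapping to GRCm38. The table they deposited holds raw counts for every gene, with no normalization, and the length in bases of its model. The counting tool, its strand setting and the annotation release are not given in the sources used here. Of the 55487 identifiers, 346 had no symbol in GENCODE release M21.

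Counts were tested in R 4.3.3 with edgeR 4.0.16 on the whole table (filterByExpr by group, TMM, robust quasi-likelihood F-test, treatment as the only term, Benjamini-Hochberg adjustment over 14046 genes), and a gene was called at an adjusted p under 0.05. Fits with DESeq2 1.42.0 and limma 3.58.1 were among the alternatives. The steps were tested on simulated data with a fixed size of change. These data held no trend in GC content or length and no library that stood apart. Smaller changes, such as that of Kynu, were not simulated. TPM used the deposited lengths. Replicates are different mice, and the p-values weigh the group difference against the spread between mice as estimated in the fit over all tested genes. With 3 counts as a floor, the smallest share a library could show was at most 1.12e-05%, which covers counting error only.

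The 9 genes, the pathway lists and the cell markers were chosen with earlier results of these data known. The genes named are Rnf10, the 9 enzymes, the called genes of the fixed lists and the 3 genes most like Tdo2 and Tat by Pearson r of log2 CPM with a pseudocount of 0.5. Genes called only without GalNAc-siNC mouse 1 and other genes of the lists (Gstz1, Got2, Aadat, Kyat1, Qprt, Slc16a10, Nr3c1, Foxa3, Hnf4a and Dbp) and Tk1 were named after their values were seen. Mice with the same number in both groups were checked for pairing. Promoter windows came from RefSeq (GRCm38.p6). Proteins are not shown, and some genes of the lists are not reported here and were left out of the list counts.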

Additional observations from a re-analysis of the deposited data

How the results depend on the processing

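Under the 18 alternatives tried for each gene, 161 of 162 values of the 9 genes kept their direction and their side of the threshold. The exception was Haao, whose log2 fold change ranged from -0.0096 (without GalNAc-siNC mouse 1) to 0.16 when 1 mouse was left out. The 6 rises kept adjusted p-values of at most 0.0428, the value that Kynu reached. Of 6 genes higher, 3 passed when a log2 change of 0.5 or more was also required, and the 7 higher genes of the rest of the pathway became 4. These 7 became 11 with limma voom and ranged from 5 to 11 when 1 mouse was left out, with 11 without GalNAc-siNC mouse 1. The 3 lower ones became 1 at an adjusted p under 0.01 and ranged from 1 to 4 when 1 mouse was left out, with 1 without GalNAc-siRnf10 mouse 2 and 1 without GalNAc-siRnf10 mouse 3. Of 270 values of the 15 called genes of the pathway, NAD and regulator lists, 253 kept their call, 17 lost it and 0 reversed. Nmrk1 also lost its call with upper quartile scaling (adjusted p = 0.0508), total counts (0.107), no filter (0.062) and the replicate block (0.0575, edgeR). Same-numbered mice had correlations of deviations of -0.000993, 0.0272 and -0.0337, so the numbers do not pair the mice, and with the number as a block 6 of the 9 genes were higher and 0 lower. A correction for GC content and length, added after seeing the data, gave 6 and 0 as well, and 11 higher and 4 lower in the rest of the pathway, also with the block added. The median over all genes lay between -0.0452 and 0.00542 across settings. With 3 mice a group, the 95% intervals of Kmo, Haao and Fah still include changes of up to -0.20, 0.28 and 0.18.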
